A study of Homo sapiens with 8 samples.

Results

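The DNA replication machinery was followed here as 56 genes listed by name as parts of the process. The list was chosen with earlier results of these data known. Each of the 56 names matched 1 row of the count table of 78691 genes, and every member passed the filter on low counts in both cell lines. They were read in 8 subgroups: 12 licensing and MCM genes, 9 genes of origin firing and the CMG helicase, 9 polymerase and primase genes, 8 genes of the sliding clamp and its loaders, 6 genes of Okazaki fragment processing and single-strand binding, 4 fork protection genes, 5 genes of nucleotide supply and 3 genes of chromatin assembly. The RNA came from 8 libraries of 2 prostate cancer cell lines, with 2 libraries in each of 4 groups. C4-2B, a castration-resistant adenocarcinoma line, carried a lentivirus with no insert (control) or one in which the EF1A promoter drives human MYCL joined to EGFP (MYCL), and transduced cells were selected with puromycin or by sorting. NCI-H660, a neuroendocrine prostate cancer line, carried a non-targeting shRNA (shCtrl) or shRNA against MYCL (shMYCL). The study's methods describe an adenoviral vector with 3 miR30-type hairpins for transient knockdown and a lentiviral shRNA for stable knockdown. They place adenoviral knockdown of MYCL in NCI-H660 cells but do not say which vector was used for these libraries. The labels, which name no vector for NCI-H660, speak of stable knockdown. No library came from untransduced cells, both control groups carried a vector, and the labels do not say whether replicates were separate cultures for every group. Cell line and construct cannot be told apart in any comparison between the lines.

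Replication of a chromosome begins with licensing. The origin recognition complex (ORC), CDC6 and CDT1 load the ring of MCM2 to MCM7 onto DNA in G1, and geminin (GMNN) blocks CDT1 afterwards. At the start of S phase the kinase CDC7 with DBF4, together with MCM10, TOPBP1, CDC45 and the GINS complex, turns the loaded ring into the active CMG helicase. Polymerase alpha and primase then lay down primers, polymerases delta and epsilon extend them, RFC loads the PCNA clamp, FEN1 and LIG1 finish the lagging strand, and ribonucleotide reductase, TYMS, TK1 and DUT supply the nucleotides. Many of these genes are transcribed from E2F-controlled promoters as cells enter S phase, and MYC family proteins, of which MYCL is a member, are known for driving growth and cell cycle genes.

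MYCL was measured in every library before its effects were read. It stood at 11.4 and 13.4 CPM (TMM-scaled counts relative to library size) in the C4-2B control libraries and at 3554 and 4018 CPM in the MYCL libraries (log2 fold change 8.26, standard error 0.12, adjusted p = 3.91e-09). Counts of the introduced and the native gene were not separated. In NCI-H660 it stood at 109.9 and 86.7 CPM in shCtrl and at 10.9 and 12.6 CPM in shMYCL libraries (log2 fold change −3.06, standard error 0.15, adjusted p = 4.29e-09). MYC moved the other way in both lines, from 145 and 141 to 96.4 and 114 CPM in C4-2B (log2 fold change −0.44, adjusted p = 0.00481, under the fold minimum) and from 13.8 and 18.4 to 30.6 and 25.0 CPM in NCI-H660 (log2 fold change 0.78, adjusted p = 0.00198). The part of MYC in the results that follow was not tested. Several marker genes of each line were near absent from the other line. KLK3, KLK2, FOLH1 and HOXB13 had at most 1 count in any NCI-H660 library, and INSM1, CHGA and NCAM1 at most 8 in any C4-2B library. Their levels in the line they mark are not given here. Library totals ran from 15177071 to 32344170 counts, and mitochondrial genes held 9.63% to 10.7% of the counts in C4-2B and 3.5% to 3.83% in NCI-H660 libraries.

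Replication genes fell with added MYCL in C4-2B and, in smaller number, rose when MYCL was lowered in NCI-H660. A gene was called at an adjusted p under 0.05 and a log2 fold change of at least 0.5 in size. In C4-2B, 38 of the 56 members were called lower, against 8.12% of all 16866 genes tested. None was called higher, and none had an unadjusted p under 0.05 in that direction from edgeR, DESeq2 or limma, where 11.8% of all genes were called higher. The members' median log2 fold change was −0.69, with a range from −1.83 for CLSPN to −0.11 for RPA3, and the median over all genes was −0.002. Both MYCL libraries were below both control libraries for each of the 56 members, a separation that 34.7% of all genes tested showed. In NCI-H660, 12 members were called higher in shMYCL cells, against 7.18% of all 16980 genes tested. None was called lower by edgeR, DESeq2 or limma, and 2 had an unadjusted p under 0.05 in that direction from edgeR, as from DESeq2, where 8.99% of all genes were called lower. The median was 0.30, with a range from −0.34 for DBF4 to 0.94 for ORC1, and the median over all genes was −0.003. Both shMYCL libraries were above both shCtrl libraries for 43 members (31.1% of all genes tested) and below them for 3 (32.0% of all genes tested), CDC7, DBF4 and PRIM1.

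**Figure D1:**
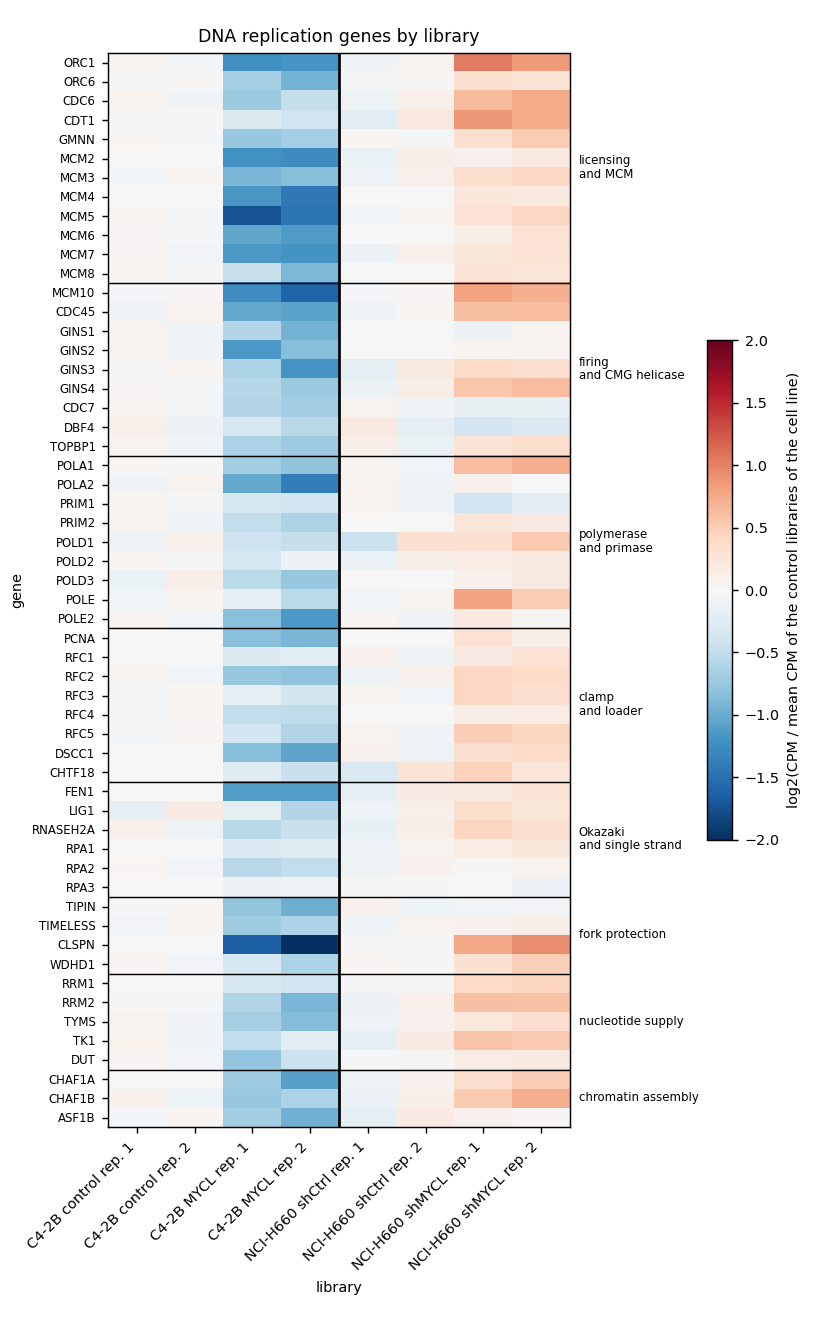
Each row is a member and each column a library, and colour gives log2 of its CPM over the mean CPM of the control libraries of that cell line (scale from −2 to 2). Horizontal lines part the 8 subgroups. The C4-2B MYCL columns are blue in every subgroup, darkest in the MCM rows and CLSPN, and the NCI-H660 shMYCL columns are mostly pale red, deepest at ORC1, CLSPN, CDT1 and MCM10, with DBF4 and PRIM1 in pale blue.

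As a share of all counts in a library, the 56 genes held 0.513% and 0.507% in C4-2B control, 0.325% and 0.298% in MYCL, 0.812% and 0.862% in NCI-H660 shCtrl and 1.02% and 1.03% in shMYCL libraries. Their TPM values (counts per gene length, scaled to a fixed sum per library) added to 3044 and 2986 in control and to 1802 and 1673 in MYCL libraries. In NCI-H660 the sums were 6457 and 6390 in shCtrl and 7724 and 7797 in shMYCL libraries. In these bulk samples fewer cells in S phase and less of these RNAs per cell cannot be told apart.

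The promoters of the members, called or not, were read for the motifs of known S-phase and MYC family factors. The shares describe the list of genes and do not depend on the RNA values. RefSeq start-site windows (GRCh38.p14, 250 bases before the start and 50 after) were found for 49 of the 56 members. MCM4, MCM5, POLD3, RPA2, DSCC1, RPA3 and GINS4 had no entry. The E2F motif was searched as TTTCCCGC, TTTCGCGC, TTTGCCGC or TTTGGCGC on either strand, and 24 of the 49 members held it, or 49.0%, against 3.99% of all 27305 genes with a window and 5.40% of the protein-coding ones. The 6 stretches that follow hold E2F motifs and no annotated exon, and stand for genes of licensing, the helicase, the polymerases, the clamp and the fork. Capitals mark the motif and its overlapping matches, and each sequence reads 5′ to 3′ along its gene.
MCM6 (chr2:135876496-135876621, minus strand): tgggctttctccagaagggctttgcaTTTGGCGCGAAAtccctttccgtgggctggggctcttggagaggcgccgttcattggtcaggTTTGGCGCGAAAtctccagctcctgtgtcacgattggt
GINS2 (chr16:85688955-85689011, minus strand): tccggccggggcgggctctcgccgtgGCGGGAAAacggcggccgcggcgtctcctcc
CDT1 (chr16:88803728-88803787, plus strand): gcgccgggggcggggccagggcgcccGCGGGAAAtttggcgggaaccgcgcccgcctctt
POLA1 (chrX:24693755-24693814, plus strand): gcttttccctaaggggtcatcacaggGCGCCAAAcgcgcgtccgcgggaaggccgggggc
PCNA (chr20:5126648-5126707, minus strand): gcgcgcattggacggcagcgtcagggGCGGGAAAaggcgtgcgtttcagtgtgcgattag
TIPIN (chr15:66356714-66356777, minus strand): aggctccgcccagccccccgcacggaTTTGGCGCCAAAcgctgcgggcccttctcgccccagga
MCM6 held 4 matches, in 2 blocks where motifs on both strands overlap. The E-box CACGTG, the site bound by MYC family dimers, was held by 8 of the 49 members, or 16.3%, against 8.78% of all genes and 10.9% of protein-coding genes. It is shown in capitals for 3 members whose printed stretch holds no base of an annotated exon.
FEN1 (chr11:61792855-61792910, plus strand): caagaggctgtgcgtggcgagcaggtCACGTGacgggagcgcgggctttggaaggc
TIMELESS (chr12:56449427-56449477, minus strand): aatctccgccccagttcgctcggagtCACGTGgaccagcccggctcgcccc
CHAF1A (chr19:4402555-4402612, plus strand): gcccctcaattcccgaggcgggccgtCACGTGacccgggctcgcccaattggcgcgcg
The CCAAT box, bound by NF-Y, was searched as CCAAT on either strand and lay in the windows of 30 of the 49 members, or 61.2%, against 39.7% of all genes. The members' windows had a median GC content of 65.7%, the windows of all genes 58.7% and those of protein-coding genes 62.3%. The part of base composition in these shares was not tested. A match describes the letters in the window and says nothing of binding.

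**Figure D2:**
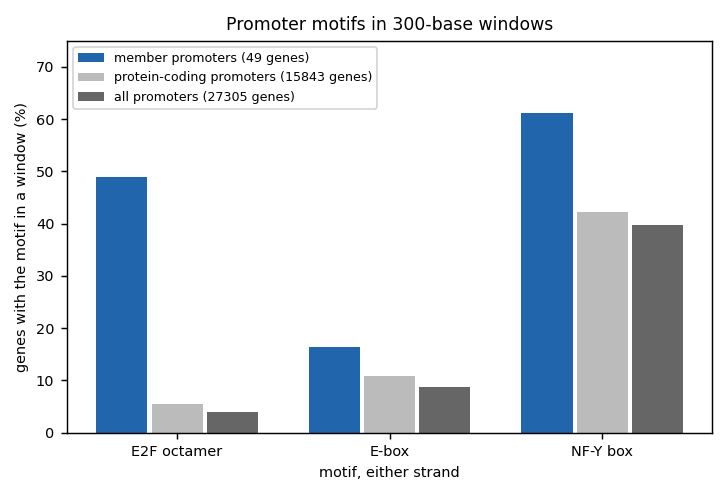
Bars give the percentage of genes with a motif on either strand in a window of 300 bases, for the 49 members with a window, protein-coding genes and all genes (axis from 0). The E2F octamer stands at 49.0% of members against 3.99% of all genes, the E-box at 16.3% against 8.78%, and the CCAAT box, drawn as NF-Y box, at 61.2% against 39.7%.

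Members with the E2F octamer in their window had a median log2 fold change of −0.76 in C4-2B, and 20 of 24 were called lower. The 25 members without it had a median of −0.50, and 12 were called lower. In NCI-H660, 5 members with the octamer and 6 without it were called higher, with medians of 0.26 and 0.37. These are descriptions without a test of the difference, and CLSPN, CDC6 and MCM2 are among the members with the octamer while ORC1, MCM10 and RRM2 are not.

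Licensing genes had the largest shift in C4-2B: 11 of 12 were called lower, with a median log2 fold change of −0.98. All 6 subunits of the MCM ring fell. MCM5 fell the most, from 86.6 and 81.4 CPM in control to 25.5 and 30.5 CPM in MYCL libraries, or by 66.7% (log2 fold change −1.59, standard error 0.10, adjusted p = 2.53e-05). The gene (ENSG00000100297.17) lies at chr22:35400134-35425431 in GRCh38. MCM4 stood at 201 and 199 CPM in control and at 89.7 and 74.2 CPM in MYCL libraries, and fell by 59.1% (log2 fold change −1.29, standard error 0.09). MCM2 stood at 153 and 152 CPM and then at 65.8 and 63.9 CPM, and fell by 57.3% (log2 fold change −1.23, standard error 0.07), and genes on the opposite strand share 23.6% of its exon bases. The gaps between groups were several times the gaps between replicates in each of these genes. MCM3, MCM6 and MCM7 had log2 fold changes of −0.88, −1.09 and −1.17, with standard errors of 0.07 to 0.08. MCM8, a related helicase that is not part of the ring, fell less (log2 fold change −0.65, standard error 0.13), and its 2 MYCL libraries were 47.0 and 34.3 CPM. Without C4-2B MYCL replicate 2 its value was −0.45 and it was not called, and a gene on the same strand shares 33.3% of its exon bases.

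In NCI-H660 no subunit of the MCM ring was called, with log2 fold changes of 0.14 to 0.38 of which those of MCM3 and MCM5 had adjusted p values of 0.0165 and 0.0264, and genes that load the ring were called. ORC1, the subunit of ORC whose level varies over the cell cycle, rose from 47.0 and 51.7 CPM in shCtrl to 101 and 88.9 CPM in shMYCL libraries, or by 92.4% (log2 fold change 0.94, standard error 0.11, adjusted p = 3.12e-05). In C4-2B it had fallen from 31.7 and 29.8 to 13.1 and 13.6 CPM (log2 fold change −1.21, standard error 0.10, adjusted p = 7.2e-05). CDC6, the ATPase that joins ORC to recruit the ring, rose from 113 and 129.9 to 188 and 204 CPM in NCI-H660 (log2 fold change 0.69, standard error 0.11, adjusted p = 3.39e-04). In C4-2B CDC6 fell from 127 and 116 to 72.6 and 87.9 CPM (log2 fold change −0.60, standard error 0.10, adjusted p = 0.00192), and without C4-2B MYCL replicate 1 the value was −0.46, under the fold minimum. CDT1, the loading factor, rose in NCI-H660 from 34.6 and 46.5 to 73.8 and 67.6 CPM (log2 fold change 0.80, standard error 0.13, adjusted p = 5.25e-04). Its values in C4-2B were 23.2 and 23.9 CPM in control and 19.5 and 17.8 CPM in MYCL libraries, a log2 fold change of −0.33 that was not called. The 2 shCtrl libraries of CDT1 differed by more than its C4-2B groups did. GMNN and ORC6 fell in C4-2B (log2 fold changes −0.72 and −0.79), and in NCI-H660 they had 0.41 and 0.30 and were not called.

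**Figure D3:**
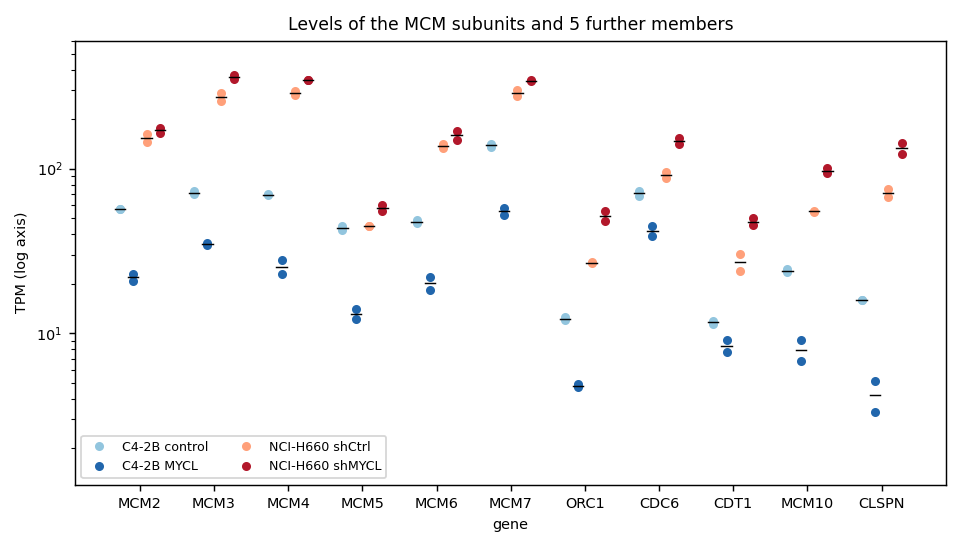
Points are the 2 libraries of each group and short bars their mean, in TPM on a log axis, for MCM2 to MCM7, ORC1, CDC6, CDT1, MCM10 and CLSPN. The C4-2B MYCL points lie below the control points for all 11 genes, and the NCI-H660 shMYCL points lie above the shCtrl points, with a wider gap at ORC1, CDC6, CDT1, MCM10 and CLSPN than at the MCM ring.

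Because TPM is per gene length, it allows the subunits of the ring to be set side by side. Their order depends on the lengths used, and annotated exon bases ran from 3645 for MCM3 to 9852 for MCM4. Other choices of length were not tested. MCM5 had the lowest mean level of the 6 in each group, at 43.5 TPM in C4-2B control, 13.1 in MYCL, 44.9 in NCI-H660 shCtrl and 57.8 in shMYCL cells. The highest mean was that of MCM7 in both C4-2B groups (139 and 54.9 TPM), of MCM4 in shCtrl (289 TPM) and of MCM3 in shMYCL cells (359 TPM). The ratio of the highest to the lowest subunit was 3.19 in C4-2B control, 4.19 in MYCL, 6.43 in shCtrl and 6.22 in shMYCL cells. In NCI-H660 the order of MCM3, MCM4 and MCM7 was within the replicate spread: their shCtrl means were 273 ± 19.3, 289 ± 11.0 and 288 ± 17.1 TPM (SD, n = 2).

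Of the 9 genes that fire origins and build the CMG helicase, 8 were called lower in C4-2B, with a median log2 fold change of −0.75, and 3 were called higher in NCI-H660. MCM10, which joins the helicase as it is activated, fell from 73.7 and 76.3 to 31.7 and 24.7 CPM in C4-2B (log2 fold change −1.41, standard error 0.11, adjusted p = 6.35e-05). In NCI-H660 it rose from 129 and 133 to 229 and 213 CPM (log2 fold change 0.76, standard error 0.10, adjusted p = 8.89e-05). CDC45, a subunit of the active helicase, fell from 45.2 and 49.5 to 23.4 and 22.5 CPM in C4-2B (log2 fold change −1.04, standard error 0.09) and rose from 25.7 and 28.0 to 40.8 and 41.3 CPM in NCI-H660 (log2 fold change 0.61, standard error 0.12). The GINS complex is the third part of the helicase. In C4-2B all 4 of its subunits fell, GINS2 the most, from 29.3 and 26.8 to 12.6 and 15.5 CPM, with log2 fold changes of −0.75 for GINS1, −0.87 for GINS3 and −0.66 for GINS4. In NCI-H660, GINS4 rose from 20.3 and 24.2 to 32.7 and 34.0 CPM (log2 fold change 0.58, standard error 0.13, adjusted p = 0.0043), while GINS1, GINS2 and GINS3 had −0.03, 0.05 and 0.34 and were not called. Without NCI-H660 shCtrl replicate 1 the GINS4 value was 0.47 and under the fold minimum, and genes on the opposite strand share 23.4% of its exon bases, where the counts' use of strand is not stated. The kinase CDC7 fell in C4-2B (log2 fold change −0.65, standard error 0.08), and its partner DBF4 had −0.44 and was not called. In NCI-H660 CDC7 and DBF4 had −0.15 and −0.34, the opposite sign to most members, and neither was called. Without NCI-H660 shCtrl replicate 2 the value for DBF4 was −0.51 and it was called lower.

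Polymerase genes moved less evenly, with 5 of 9 called lower in C4-2B (median log2 fold change −0.56) and 2 called higher in NCI-H660 (median 0.16). Polymerase alpha, which starts each new strand, contributed its catalytic subunit POLA1 to both counts. POLA1 stood at 40.0 and 38.9 CPM in C4-2B control and at 24.4 and 22.7 CPM in MYCL libraries (log2 fold change −0.75, standard error 0.09). In NCI-H660 it rose from 152 and 142 to 224 and 243 CPM (log2 fold change 0.67, standard error 0.10, adjusted p = 2.92e-04). Its partner subunit POLA2 fell further in C4-2B, from 32.4 and 35.8 to 16.8 and 13.1 CPM (log2 fold change −1.19, standard error 0.13), but in NCI-H660 stood at 49.0 and 44.0 CPM in shCtrl and at 49.2 and 46.9 CPM in shMYCL libraries, which overlap. A gene on the same strand shares 16.8% of the exon bases of POLA2. For the replicative polymerases the accessory subunits POLD3 and POLE2 fell in C4-2B (log2 fold changes −0.64 and −0.98), and the catalytic subunits POLD1 and POLE had −0.44 and −0.35 and were not called. Leaving out 1 library brought both calls: POLE had −0.53 without C4-2B MYCL replicate 1 and POLD1 −0.55 without C4-2B control replicate 1. POLE was called higher in NCI-H660, from 89.6 and 96.1 to 161 and 132 CPM (log2 fold change 0.66, standard error 0.12, adjusted p = 7.13e-04). Of the primase subunits, PRIM2 was called lower in C4-2B (log2 fold change −0.56) but had −0.50 without C4-2B MYCL replicate 2 and −0.49 without C4-2B control replicate 1, and PRIM1 had −0.37 and was not called.

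The clamp and its loaders held 3 called members of 8 in C4-2B and none in NCI-H660, where 4 of the 8 had an adjusted p under 0.05 from edgeR with a fold change below the minimum. PCNA, the ring that tethers polymerases to DNA, fell from 179 and 183 to 101 and 95.5 CPM in C4-2B (log2 fold change −0.88, standard error 0.07, adjusted p = 6.73e-05). In NCI-H660 it stood at 540.2 and 532 CPM in shCtrl and at 655 and 582 CPM in shMYCL libraries, a log2 fold change of 0.21 that was not called. DSCC1, part of the alternative clamp loader that acts in sister chromatid cohesion, fell from 54.7 and 55.6 to 30.5 and 26.5 CPM in C4-2B (log2 fold change −0.95, standard error 0.09). RFC2 fell as well (log2 fold change −0.78, standard error 0.09), while the other 4 RFC subunits had values from −0.50 to −0.25 and were not called. RFC4 and RFC5 were at the fold minimum, with −0.50 and −0.49, and were called when C4-2B control replicate 1 was left out.

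Lagging-strand and single-strand binding genes had the smallest median shift of the 8 subgroups in C4-2B (log2 fold change −0.43), where 2 of 6 were called lower, and none was called in NCI-H660, where 1 had an adjusted p under 0.05 from edgeR. FEN1, the flap nuclease, was the exception in size, at 132 and 132 CPM in control and 61.2 and 61.4 CPM in MYCL libraries (log2 fold change −1.11, standard error 0.07, adjusted p = 2.71e-05). In NCI-H660 FEN1 stood at 152 and 191 CPM in shCtrl and at 194 and 207 CPM in shMYCL libraries. LIG1, the ligase that seals the fragments, had −0.36 in C4-2B with a standard error of 0.17 and an adjusted p of 0.131. It was called lower without C4-2B MYCL replicate 1 (−0.57) or C4-2B control replicate 1 (−0.53). The 3 subunits of RPA, which coats single-stranded DNA, had log2 fold changes of −0.26 for RPA1, −0.52 for RPA2 and −0.11 for RPA3, and RPA2 was the subunit called, though not without C4-2B MYCL replicate 1 (−0.48) or C4-2B control replicate 1 (−0.48). RNASEH2A, which removes ribonucleotides, had 68.6 and 59.9 CPM in control and 44.0 and 47.2 CPM in MYCL libraries, a log2 fold change of −0.50 just short of the minimum. It shares 53.3% of its exon bases with THSD8 on the same strand.

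At the fork, CLSPN had the largest fall of any member. Claspin, its product, links the moving fork to the ATR checkpoint, and the gene (ENSG00000092853.15) lies at chr1:35720218-35769978. It went from 67.5 and 68.6 CPM in C4-2B control to 21.9 and 16.4 CPM in MYCL libraries, or fell by 71.9% (log2 fold change −1.83, standard error 0.12, adjusted p = 3.13e-05). In NCI-H660 it rose from 224 and 215 to 372 and 420.1 CPM, or by 80.1% (log2 fold change 0.85, standard error 0.11, adjusted p = 4.78e-05). The fork protection pair TIMELESS and TIPIN fell in C4-2B (log2 fold changes −0.66 and −0.87) and had 0.10 and −0.04 in NCI-H660, where neither was called. WDHD1, which couples polymerase alpha to the helicase, had −0.49 and 0.40 and was called in neither line.

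Nucleotide supply genes were called lower in C4-2B in 3 of 5 cases and higher in NCI-H660 in 2 of 5. RRM2, the regulatory subunit of ribonucleotide reductase, fell from 265 and 256 to 171 and 139 CPM in C4-2B (log2 fold change −0.75, standard error 0.10, adjusted p = 6.03e-04). In NCI-H660 it rose from 293 and 341 to 481 and 476 CPM (log2 fold change 0.59, standard error 0.11, adjusted p = 0.00103), or 0.49 and under the minimum without NCI-H660 shCtrl replicate 1. RRM1, the larger subunit, moved less: 249 and 245 to 198 and 188 CPM in C4-2B, and 367 and 380.1 to 491 and 503 CPM in NCI-H660. Its log2 fold changes of −0.35 and 0.41 had adjusted p values of 0.00447 and 0.00783 but did not reach the minimum. TYMS, which makes thymidylate, fell in C4-2B from 104 and 94.5 to 62.5 and 54.6 CPM (log2 fold change −0.76, standard error 0.09), and genes on the opposite strand share 47.9% of its exon bases. TK1, which salvages thymidine, was called in NCI-H660 (log2 fold change 0.54, standard error 0.13) but had 0.38 without NCI-H660 shCtrl replicate 1, and DUT in C4-2B (−0.59, standard error 0.11) had −0.42 without C4-2B MYCL replicate 1.

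All 3 chromatin assembly genes, which place histones on new DNA, fell in C4-2B. CHAF1A, the large subunit of CAF-1, went from 69.0 and 70.4 to 42.0 and 32.8 CPM (log2 fold change −0.90, standard error 0.11), and ASF1B had −0.81. CHAF1B, the middle subunit, fell from 38.0 and 33.7 to 21.3 and 23.0 CPM in C4-2B (log2 fold change −0.70, standard error 0.10) and rose from 45.7 and 53.8 to 71.3 and 82.7 CPM in NCI-H660 (log2 fold change 0.63, standard error 0.12, adjusted p = 0.00146).

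Set side by side, 9 members were called lower in C4-2B and higher in NCI-H660: ORC1, CDC6, MCM10, CDC45, GINS4, POLA1, CLSPN, RRM2 and CHAF1B. A further 29 were called in C4-2B alone, CDT1, POLE and TK1 in NCI-H660 alone, and 15 in neither. Shares of all genes with each pair of calls are not reported here. Whether these counts differ from those of genes in general was not tested. Whether the lines differed was tested as an interaction, the C4-2B effect of high over low MYCL minus that in NCI-H660. The effect of high MYCL was more negative in C4-2B for 22 members (8.33% of all 19605 genes tested were called in that direction) and more negative in NCI-H660 for none by edgeR, DESeq2 or limma, with 1 member at an unadjusted p under 0.05 from edgeR (9.59% of all genes were called in that direction). CDT1 had the largest difference in that second direction (0.46, adjusted p = 0.0997), and it was called, at 0.68, without NCI-H660 shCtrl replicate 2. MCM2, MCM3, MCM4, MCM5, MCM6 and MCM7 were all among the 22, with differences from −1.24 for MCM5 to −0.50 for MCM3, as were POLA2 (−1.14), FEN1 (−0.89), PCNA (−0.67) and CLSPN (−0.98, standard error 0.16, adjusted p = 0.00112). MCM3 was near the limit and lost the call without C4-2B MYCL replicate 1 (−0.46), C4-2B control replicate 2 (−0.45), NCI-H660 shCtrl replicate 2 (−0.41) or NCI-H660 shMYCL replicate 1 (−0.48). MCM10 (−0.65) and DSCC1 (−0.60) lost it without C4-2B MYCL replicate 2, at −0.47 and −0.50. POLD3 lost it without C4-2B MYCL replicate 2 (−0.395) or C4-2B control replicate 2 (−0.363). The POLD3 call was also lost without NCI-H660 shCtrl replicate 1 (−0.518), NCI-H660 shMYCL replicate 1 (−0.476) or NCI-H660 shMYCL replicate 2 (−0.561). For ORC1, CDC6, POLA1, GINS4, RRM2 and CHAF1B the difference ranged from −0.27 to 0.08 on the log2 scale and was not called. CDC45 was not called either with all libraries, but it was called, at −0.51, without NCI-H660 shCtrl replicate 1. No nucleotide supply gene was called in this comparison, and 1 of the 5, TYMS (−0.48), had an adjusted p under 0.05 from edgeR. TYMS was called without C4-2B MYCL replicate 1 (−0.57), NCI-H660 shCtrl replicate 1 (−0.58) or NCI-H660 shMYCL replicate 2 (−0.56), and DUT without C4-2B MYCL replicate 2 (−0.61). Across the 56 members the 2 fold changes had a Pearson correlation of −0.22 and a Spearman correlation of −0.07. Over 14212 genes tested in both lines they were −0.09 and −0.14, and genes are not independent replicates.

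**Figure D4:**
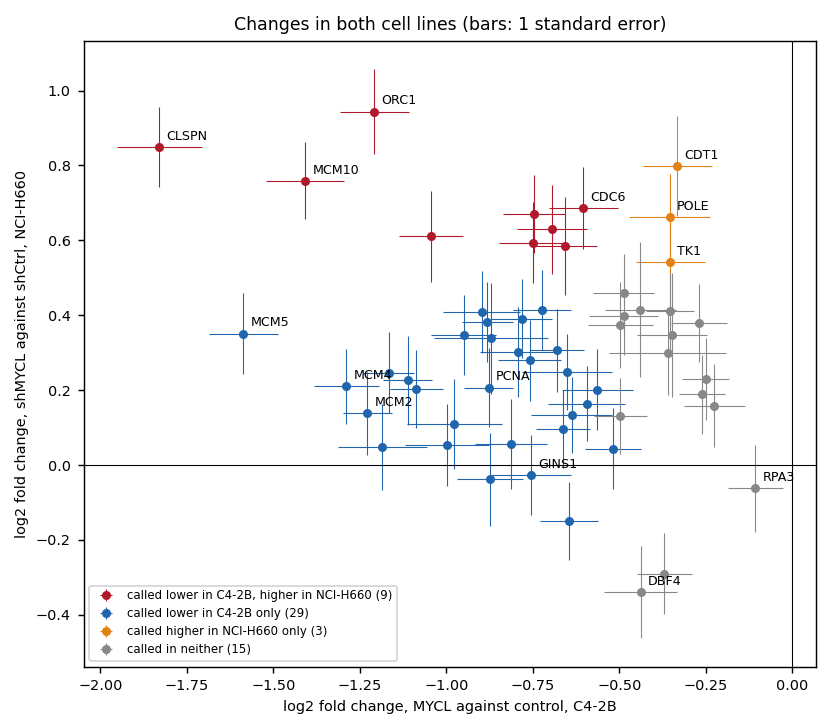
Each point is a member, with its log2 fold change in C4-2B (MYCL against control) on the horizontal and in NCI-H660 (shMYCL against shCtrl) on the vertical axis and bars of 1 standard error. All 56 points lie left of 0, and the 9 members called in both lines form the upper left, with CLSPN, ORC1 and MCM10 at its edge and MCM5, MCM4 and MCM2 far left but low.

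The control groups of the lines were compared in these genes as well. Counting calls of both directions, members were called about as often as genes in general. Members were called higher in NCI-H660 more often than genes in general, and lower less often. These differences in share were not tested. Between NCI-H660 shCtrl and C4-2B control, 29 members were higher in NCI-H660 and 9 lower, at the same rule by which 36.5% and 33.3% of all genes were called, and the median difference was 0.52. These counts moved with the scaling. Values of log2(TPM + 1) gave 41 higher and 3 lower with a median of 1.07 (all genes 0.525). The same values centred on each library's median gave 19 higher and 9 lower with a median of 0.32 (all genes −0.224). Shares of all genes called on these scales are not reported here. POLA1 was higher by 1.73, TIMELESS by 1.67, ASF1B by 1.56, MCM4 by 1.55, CLSPN by 1.53 and PCNA by 1.41 on the log2 scale, and LIG1 by 1.92, the most of any member. TK1 was lower by 1.69 on the log2 scale in NCI-H660, with 39.7 and 51.0 CPM in shCtrl and 137 and 125 CPM in C4-2B control libraries, each scaled within its own line. GINS4, CDC45 and MCM5 were lower as well (log2 differences −1.43, −0.98 and −0.56), and the call for MCM5 was lost without NCI-H660 shCtrl replicate 1 (−0.49). PCNA had the highest mean TPM of all members in C4-2B control (213), shCtrl (859) and shMYCL cells (997), and POLD2, a small subunit of polymerase delta, had the highest in C4-2B MYCL cells (123).

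Genes around the members were read from lists of the same process and of neighbouring ones. Among 37 other replication genes, 20 were called lower and 1 higher in C4-2B (median log2 fold change −0.52), and 6 higher and none lower in NCI-H660 (median 0.21), where 3 of the 37 had an adjusted p under 0.05 with a negative value from edgeR. UHRF1, which brings DNA methylation to new strands, had the largest fall in C4-2B, from 57.6 and 67.9 to 31.1 and 23.2 CPM (log2 fold change −1.20, standard error 0.14). RECQL4, a helicase that works with MCM10, had the largest rise in NCI-H660, from 84.0 and 119 to 191 and 178 CPM (log2 fold change 0.86, standard error 0.14). POLD4 was the gene called higher in C4-2B (log2 fold change 0.66, standard error 0.16).

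Genes of mitosis did not follow the members in NCI-H660. Of 30 mitosis genes, 13 were called lower and 1, MYBL2, higher in shMYCL cells, with a median of −0.43, where the members had a median of 0.30. CCNB1, the mitotic cyclin, fell from 189.8 and 177 to 80.1 and 88.7 CPM (log2 fold change −1.12, standard error 0.11, adjusted p = 4.2e-06). In C4-2B 7 of the 30 were called lower and none higher by edgeR, with a median of −0.24 and FOXM1 falling the most (log2 fold change −1.10, standard error 0.08). The proliferation marker MKI67 fell in C4-2B from 222 and 209 to 149 and 143 CPM (log2 fold change −0.56, standard error 0.07) and overlapped between the NCI-H660 groups, at 562 and 488 CPM in shCtrl and 524 and 414 CPM in shMYCL libraries. TOP2A was called in neither line (log2 fold changes 0.11 and −0.30). Of 31 E2F and cell cycle control genes, 11 were called lower and 5 higher in C4-2B, and 8 higher and 7 lower in NCI-H660. E2F1 fell in C4-2B from 42.1 and 43.8 to 26.2 and 22.6 CPM (log2 fold change −0.81, standard error 0.10) and had 0.25 in NCI-H660, not called. CDC25A, the phosphatase that opens S phase, fell in C4-2B (log2 fold change −1.38, standard error 0.14) and rose in NCI-H660 (log2 fold change 1.09, standard error 0.11). The CDK inhibitor CDKN1C rose in C4-2B from 4.46 and 4.91 to 29.8 and 27.6 CPM (log2 fold change 2.62, standard error 0.12) and fell in NCI-H660 (log2 fold change −0.80, standard error 0.19), whereas CDKN1A rose in both (0.99 and 0.52, standard errors 0.09 and 0.10). The part of these cell cycle genes in the members' shifts was not tested.

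**Figure D5:**
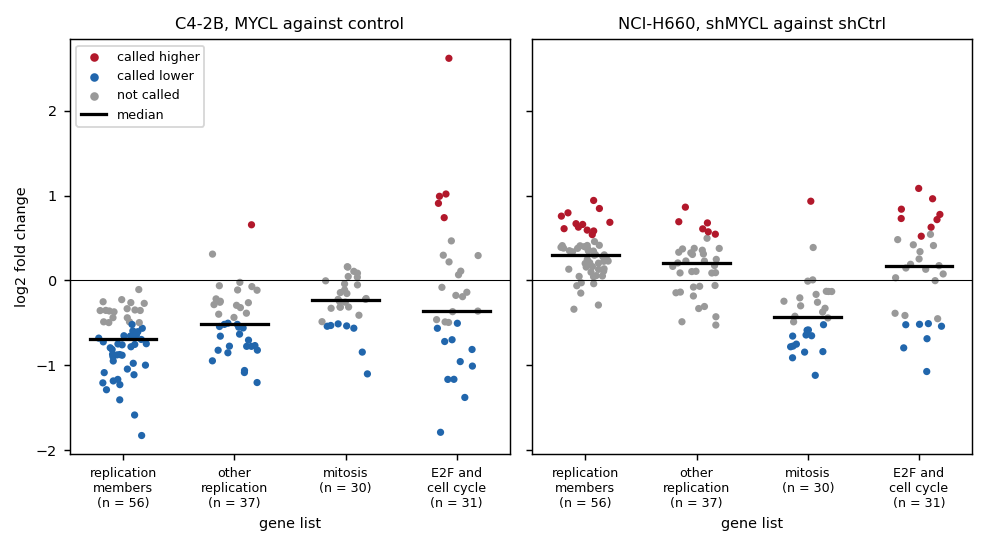
Points are genes, with log2 fold change on the vertical axis for C4-2B on the left and NCI-H660 on the right, and thick bars the median of each list. Red points were called higher, blue lower, grey not. In C4-2B the medians of all 4 lists lie below 0 (−0.69 for the members, −0.24 for mitosis), and in NCI-H660 the members' median is 0.30 and that of mitosis −0.43.

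The 15 members called in neither line were DBF4, PRIM1, POLD1, POLD2, RFC1, RFC3, RFC4, RFC5, CHTF18, LIG1, RNASEH2A, RPA1, RPA3, WDHD1 and RRM1. RNASEH2A and RRM1 had the highest mean TPM among them. Several gained a call when 1 library was left out. In C4-2B these were DBF4, LIG1, POLD1, RFC4, RFC5, RNASEH2A and WDHD1, at −0.63 to −0.52 on the log2 scale. In NCI-H660, POLD1 was called higher at 0.85 and CHTF18 at 0.66 without NCI-H660 shCtrl replicate 2, where all libraries gave 0.41 and 0.35, and RFC5, RNASEH2A and DBF4 gained calls at 0.54, 0.53 and −0.51. With no minimum on the fold change, 53 of the 56 members had an adjusted p under 0.05 and a negative value in C4-2B (17.4% of all genes), and 23 a positive value in NCI-H660 (12.0% of all genes). The 3 that did not pass in C4-2B were POLD2, LIG1 and RPA3.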

How the data were processed

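RNA from 8 libraries (2 per group) was enriched for poly(A) RNA and sequenced paired-end by the authors. The authors deposited estimated counts per gene, of which 34.4% of the non-zero values were not whole, so that they were rounded to whole numbers here, and TPM values made with Ensembl gene lengths for 65535 of the 78691 genes. The submitters' processing notes name hg38. The aligner, the counter and any use of strand in counting are not given in the sources used here. Library totals of 15177071 to 32344170 counts set the precision.

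The 2 lines were fitted separately with edgeR 4.0.16 in R 4.3.3 (TMM scaling, filterByExpr, quasi-likelihood test, Benjamini-Hochberg adjustment over all genes tested). The difference between lines, and the difference between control groups, came from 1 fit of all 4 groups. Calls needed an adjusted p under 0.05 together with a log2 fold change of 0.5 or more in size. The standard error is the log2 fold change over the square root of its F statistic. CPM values in the text are TMM-scaled within a line. With 2 libraries against 2 an exact permutation test cannot go below p = 0.33, so single genes have only the model's p, and these measure the spread between these samples, which may be technical. DESeq2 1.42.0, RLE scaling, other filters, limma 3.58.1 on log2 TPM, a replicate block and leaving out each library were the alternatives.

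The members, the further lists and the rule for named genes (MYCL, the 5 called members with the largest changes in each line, those called in both lines, those that differed most between lines, the largest per subgroup, and a few fixed list genes) were chosen with earlier results of these data known. Promoter windows came from RefSeq (GRCh38.p14) and positions from GENCODE 44, which held all 56 members and 61458 of the 78691 gene IDs. Other genes named were chosen after their values were seen. The scripts were tested on simulated data. Some marker genes are not reported here.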

Additional observations from a re-analysis of the deposited data

Results flagged for a closer look

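By the interaction test of edgeR, the effect of high over low MYCL was more negative in C4-2B for 22 of the 56 members. Of all genes tested, 8.33% were called in that direction. Among the 22 are 8 members whose values are given at length. The rule for such members took in the 5 largest called differences, so their number is set in part by that rule. The differences, C4-2B minus NCI-H660 on the log2 scale, were −1.24 for MCM5, −1.14 for POLA2, −1.09 for MCM2, −1.08 for MCM4, −0.98 for CLSPN, −0.89 for FEN1, −0.65 for MCM10 and −0.60 for DSCC1. CLSPN and MCM10 were called in both lines, lower with added MYCL in C4-2B and higher with lowered MYCL in NCI-H660. For both genes, high MYCL thus went with the lower level in each line. The other 6 were called in C4-2B. The lines also differ in construct (an overexpression vector against shRNA, whose vector the labels do not name). They differ too in the size of the MYCL change, given by log2 fold changes of 8.26 for the C4-2B and −3.06 for the NCI-H660 comparison.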

How the results depend on the processing

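The medians kept their direction under the alternatives run, and so did the counts except in NCI-H660, where 2 settings left no member called. With a log2 fold change of at least 1 in size, 11 members were lower in C4-2B and 0 higher in NCI-H660 by edgeR, where 31 had an unadjusted p under 0.05. Shares of all genes at that minimum, or at an unadjusted p, are not reported here. With no minimum, 23 members were higher in NCI-H660 (12.0% of all genes). Limma on log2(TPM + 1) without a filter called 0 higher there, with 30 at an unadjusted p under 0.05, where DESeq2 called 12. The C4-2B median was −0.81 on log2(TPM + 1), with or without the filter, and −0.87 on log2(TPM + 0.1), where the medians of all genes were −0.142, −0.028 and −0.162. Between the control groups, log2(TPM + 1) called 41 members higher and 3 lower with a median of 1.07 (all genes 0.525), and centring it called 19 higher with a median of 0.32 (all genes −0.224). Leaving out 1 library gave 37 to 41 members lower in C4-2B (median −0.755 to −0.652), 10 to 17 higher and 0 to 1 lower in NCI-H660 (median 0.22 to 0.344), 20 to 26 lower and 0 to 1 higher in the difference between lines, and 26 to 30 higher and 7 to 10 lower between controls (median 0.443 to 0.567). POLA2 in NCI-H660 ran from −0.028 without NCI-H660 shCtrl replicate 2 to 0.133 without NCI-H660 shCtrl replicate 1. The replicate block left these counts as they were (38 lower in C4-2B, 12 higher in NCI-H660, 22 lower in the difference). Deviations from the group mean correlated at 0.026 and 0.021 between samples sharing a replicate number. These values do not show whether such samples shared a culture or preparation. GINS4 was not called higher in NCI-H660 on TPM scales. The E2F motif upstream of the start alone was held by 16 members (3.40% of genes), and the E-box by 7 (7.73%). Depth was enough for all 56 members to be tested. The causes of these shifts were not tested.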
